A study of Mus musculus with 25 samples.

Results

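The UDP-glucuronosyltransferases (UGT) and cytosolic sulfotransferases (SULT) were followed across mouse liver transcriptomes. Members were taken by name: every gene whose mouse symbol starts with Ugt1a, Ugt2a, Ugt2b, Ugt3a or Sult, pseudogenes left out, that had any count in any library. Of 41 such genes in the count tables, 38 were members, among 29231 genes with any count. Sult1c1, Sult2a4 and Sult3a2 had no count in any library. The members comprised 9 Ugt1a, 2 Ugt2a, 7 Ugt2b, 2 Ugt3a, 5 Sult1, 8 Sult2, 1 Sult3 and 4 other Sult genes. A total of 26 passed the filter on low counts (more than 1 CPM, counts scaled to the library total, in at least 2 libraries) and were tested, among 14065 genes tested in all.

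Both families carry out conjugation, in which a lipophilic molecule is joined to a charged group so that it can be excreted in bile or urine. UGT enzymes sit in the endoplasmic reticulum and transfer a sugar, mostly glucuronic acid from UDP-glucuronic acid. SULT enzymes transfer sulfate from the donor PAPS, most of them in the cytosol. The liver is a main site of both reactions, whose substrates include bilirubin, bile acids, steroid and thyroid hormones and many drugs. Nuclear receptors that sense such molecules, among them CAR (Nr1i3), PXR (Nr1i2) and PPARα (Ppara), are known regulators of several members.

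The study asked how NAMPT, an enzyme of NAD synthesis, acts in livers with and without the NAD-dependent deacetylase SIRT1 under a Western diet (WD). All 25 libraries came from livers of C57B/6J mice aged 20 weeks, male by the study's methods, that had been grown to about 8 weeks of age and given AAV8, either an empty vector (EV) or one carrying NAMPT behind the thyroxine-binding globulin promoter, which directs expression to hepatocytes. Chow was given to 3 WT EV mice, and WD to 6 WT EV, 6 WT NAMPT, 5 SIRT1 LKO EV and 5 SIRT1 LKO NAMPT mice. WT mice were Sirt1 fl/fl littermates, and SIRT1 LKO mice carried the same alleles with Albumin-cre, which directs the deletion to hepatocytes. Every chow-fed mouse was WT EV, and the WD groups served in more than 1 comparison, so comparisons share libraries. P-values measure the spread between these libraries, each labelled as a separate sample.

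Libraries held 20166175 to 32937326 gene counts each. Whole-gene Sirt1 levels ran from 7.16 to 11.1 CPM in the libraries labelled SIRT1 LKO and from 7.62 to 10.7 CPM in the WT libraries. Whole-gene counts do not resolve the deleted part of a gene and did not check this label. Nampt ran from 38.3 to 54.1 CPM in WT EV on WD and from 46.8 to 77.8 CPM in WT NAMPT, a difference that was not called (adjusted p = 0.144, limma). In the libraries labelled SIRT1 LKO its ranges were 46 to 75.6 CPM with EV and 53.9 to 127 CPM with NAMPT (adjusted p = 0.403). All 6 hepatocyte markers were detected in every group. Libraries of WT NAMPT stood apart from each other: replicate 2 was the lowest of 6 for 19 of the 26 members tested and replicate 6 the highest for 18. Their weights in the fit were 0.401 and 0.336, against 0.506 to 1.85 for the other 4.

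Most members lie in gene clusters, whose layout decides which reads could be counted. The 9 Ugt1a members share a locus on the plus strand (chr1:88055388-88220002, GRCm38), where each gene has a leading exon of its own and all splice into the same downstream exons. Between 50.3% and 82.7% of the exonic bases of a Ugt1a member are also exon of another counted gene. Since only unambiguous reads were counted, its count rests on the remaining bases, mostly its own leading exon. The 7 Ugt2b members (chr5:86889767-87424203) and 2 Ugt2a members (chr5:87324972-87490871) lie close together, followed by Sult1b1, Sult1d1 and Sult1e1 (chr5:87513339-87591611). Sult1a1 (chr7:126672865-126676432) and the Sult2 genes are on chromosome 7, and Ugt3a1 and Ugt3a2 are neighbours on chromosome 15 (chr15:9273319-9370955).

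Promoters of Ugt1a1, Ugt1a5 and Ugt1a9 are shown because these genes use the same downstream exons and yet differed in the results. Each line gives the 250 bases before the RefSeq start (GRCm38.p6, plus strand), at chr1:88211709-88211958, chr1:88165762-88166011 and chr1:88070529-88070778. Capitals mark the dioxin response core GCGTG, read on either strand.
Ugt1a1: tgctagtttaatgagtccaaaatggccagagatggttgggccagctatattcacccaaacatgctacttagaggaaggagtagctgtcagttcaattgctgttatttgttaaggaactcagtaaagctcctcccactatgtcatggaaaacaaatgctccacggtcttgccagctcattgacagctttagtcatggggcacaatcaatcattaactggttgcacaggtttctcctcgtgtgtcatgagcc
Ugt1a5: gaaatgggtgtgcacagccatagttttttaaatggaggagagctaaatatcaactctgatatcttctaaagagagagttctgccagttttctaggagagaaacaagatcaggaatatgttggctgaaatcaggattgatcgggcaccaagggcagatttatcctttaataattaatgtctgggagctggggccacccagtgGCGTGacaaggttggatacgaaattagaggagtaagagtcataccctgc
Ugt1a9: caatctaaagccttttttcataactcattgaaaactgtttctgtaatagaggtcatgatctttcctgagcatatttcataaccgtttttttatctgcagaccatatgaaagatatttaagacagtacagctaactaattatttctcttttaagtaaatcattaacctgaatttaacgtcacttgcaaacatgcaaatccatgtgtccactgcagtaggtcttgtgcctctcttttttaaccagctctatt
The dioxin response core was present in Ugt1a5 and not in the 250 bases of Ugt1a1 or Ugt1a9. Over the 35 RefSeq promoters that matched 32 members, 14.3% held it, against 28.2% of all 32851 promoters of the same length. The letters TATAAA, searched on both strands, were in 7 of the 35 member promoters and in 12.4% of all promoters. Identity was 48.9% between the promoters of Ugt1a1 and Ugt1a5, 47.4% between Ugt1a1 and Ugt1a9 and 44.9% between Ugt1a5 and Ugt1a9. A match describes letters, not a bound site.

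A second set is shown because 3 Ugt2b genes with similar transcripts, chosen after their values were seen, differed widely in level. Ugt2b5 (chr5:87140341-87140590), Ugt2b37 (chr5:87254805-87255038) and Ugt2b38 (chr5:87424204-87424453) lie on the minus strand. Capitals mark the longest run, of 62 bases, that all 3 promoters share without a difference. For Ugt2b37 the line holds 234 bases, without those that the gene annotation places inside the transcript.
Ugt2b5: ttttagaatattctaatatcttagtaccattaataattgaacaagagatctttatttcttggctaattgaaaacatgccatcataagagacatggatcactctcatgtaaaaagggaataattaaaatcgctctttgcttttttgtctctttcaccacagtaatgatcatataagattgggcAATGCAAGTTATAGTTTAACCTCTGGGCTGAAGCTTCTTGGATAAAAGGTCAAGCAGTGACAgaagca
Ugt2b37: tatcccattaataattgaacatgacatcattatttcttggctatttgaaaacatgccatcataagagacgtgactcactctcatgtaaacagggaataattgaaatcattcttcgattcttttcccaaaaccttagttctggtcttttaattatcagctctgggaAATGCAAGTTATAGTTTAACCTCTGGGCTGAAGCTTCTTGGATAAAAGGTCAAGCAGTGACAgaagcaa
Ugt2b38: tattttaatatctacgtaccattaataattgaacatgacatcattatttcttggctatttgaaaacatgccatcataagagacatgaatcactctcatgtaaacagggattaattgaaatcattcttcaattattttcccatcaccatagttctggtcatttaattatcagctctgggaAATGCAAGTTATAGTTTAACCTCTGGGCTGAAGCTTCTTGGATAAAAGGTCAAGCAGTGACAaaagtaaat
Promoter identity was 81.5% between Ugt2b38 and Ugt2b5, 84.8% between Ugt2b37 and Ugt2b38 and 72.6% between Ugt2b37 and Ugt2b5. Their transcripts were 91.6% to 93.9% identical, and 41.7% of the 50-base words of Ugt2b5, 18.3% of those of Ugt2b37 and 37.4% of those of Ugt2b38 also occur in another gene, so these counts are uncertain where reads matched more than 1 gene. The lowest library of Ugt2b5 held 219 CPM, whereas the highest of Ugt2b38 held 13.8 CPM and the highest of Ugt2b37 6.47 CPM.

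Levels of different genes were compared as CPM per kilobase of exon not shared with another counted gene, over all 25 libraries. Ugt2b5 led with 242 ± 68.3 (SD, n = 25), followed by Ugt2b1 with 211 ± 92.7, Ugt2b36 with 203 ± 40.1, Sult2a8 with 161 ± 92.6 and Ugt1a1 with 148 ± 41.3. Each neighbour in this order differed from the next by less than the larger of their SDs. Ugt1a1 glucuronidates bilirubin, Sult2a8 sulfates bile acids in mouse liver, and Ugt2b enzymes act on steroids and drugs. The Ugt1a1 level rests on 385 bases, because 528 more lie opposite Gm20528, an antisense gene with 0 counts. Had counting used strand, the divisor would be 913 bases and the level 62.3. The next highest were Sult1a1, a phenol sulfotransferase, at 91.7 ± 24.8, Ugt2b34 at 87.5, Ugt2a3 at 86.6 and Ugt3a2 at 84.7 CPM per kilobase. In the Ugt1a locus Ugt1a5 reached 50.1, Ugt1a6b 39 and Ugt1a9 9.27, and Ugt2b38 and Ugt2b37 were at 3.58 and 1.98.

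**Figure D1:**
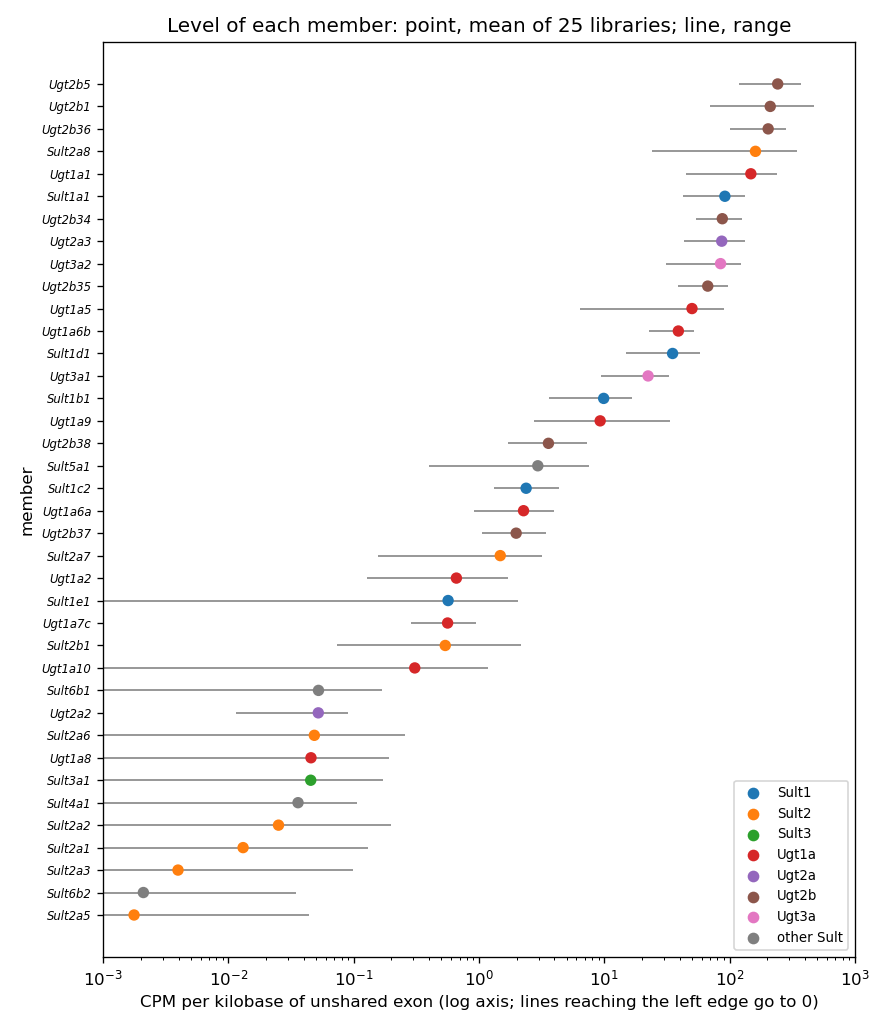
Level of each of the 38 members in CPM per kilobase of unshared exon (x axis, logarithmic), 1 row per member, with the point at the mean of 25 libraries, the line from the lowest to the highest library and the colour giving the subfamily. Ugt2b5 is highest with 242 and Sult2a5 lowest, and the 7 Ugt2b members spread from 242 down to 1.98.

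The 12 members under the filter never exceeded 21 counts or 0.962 CPM in a library. They were Sult2a1, Sult2a2, Sult2a3, Sult2a5, Sult2a6, Sult3a1, Sult4a1, Sult6b1, Sult6b2, Ugt1a8, Ugt1a10 and Ugt2a2. Several, including Sult2a1, Sult2a2 and Sult3a1, are known as female-predominant liver genes in mice. Sult3a1, the single Sult3 member, had at most 6 counts in a library.

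By subfamily, Ugt2b genes made up most of the summed CPM of all members in every group, with a mean share of 58.1% to 63.1%. The Ugt2b sum ran from 1505 to 2591 CPM in WT EV on WD and from 936 to 2959 CPM in WT NAMPT. The Ugt1a sum ran from 105 to 202 CPM in WT EV, from 56.3 to 122 CPM in WT NAMPT, from 149 to 195 CPM in SIRT1 LKO EV and from 148 to 224 CPM in SIRT1 LKO NAMPT. For this sum, WT NAMPT and SIRT1 LKO libraries did not overlap. The Sult2 sum, nearly all of it Sult2a8, spread widely within WT NAMPT, from 59.1 to 755 CPM.

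In Western diet-fed WT livers, NAMPT was compared with EV. A total of 10 of the 26 members tested were lower with NAMPT and none was higher, against a background of 5.77% of all genes called lower and 7.67% called higher (limma, Benjamini-Hochberg adjusted p of 0.05 or less). They were Ugt1a1, Ugt1a5, Ugt1a6b, Ugt2b5, Ugt2b34, Ugt2b35, Ugt3a1, Ugt3a2, Sult1b1 and Sult2a7. The median log2 fold change of the members was -0.52, against 0.004 over all genes, and 21 of 26 values were negative. With 2 surrogate variables the median of the members was -0.22. In bulk liver, fewer cells of a type and less RNA per cell cannot be told apart.

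Ugt1a1, the bilirubin enzyme, had 48.6 CPM in the lowest, a median of 60.2 and 74.2 CPM in the highest EV library. With NAMPT the lowest was 17.3, the median 40.1 and the highest 60.6 CPM. Of the 6 NAMPT libraries 4 lay below every EV library, and replicates 5 and 6 lay within the EV range. The level was 1.59-fold lower (log2 fold change -0.67 ± 0.17, SE, adjusted p = 0.0152).

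Ugt1a5, its neighbour in the locus, held 10.7 CPM in the lowest, 50.4 in the median and 62.2 CPM in the highest EV library. With NAMPT these values were 5.75, 19.2 and 29.3 CPM. Replicate 8 alone gave the low EV value, and the other 5 EV libraries, from 43.7 CPM upwards, all exceeded every NAMPT library. The level was 2.13-fold lower (log2 fold change -1.09 ± 0.32, SE, adjusted p = 0.0279).

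Ugt1a6b, of the Ugt1a6 type that acts on planar phenols, showed the smallest change of the 10, without overlap. EV libraries ran from 36.6 to 48.5 CPM with a median of 41.4, and NAMPT libraries from 21.5 to 34.8 CPM with a median of 34 (log2 fold change -0.36 ± 0.10, SE, adjusted p = 0.0188). Ugt1a9, at 2.4 to 14.3 CPM in EV and 2.8 to 8.3 CPM in NAMPT, was not called (log2 fold change 0.30 ± 0.35, SE, adjusted p = 0.597). Its sign was not stable: mean CPM was 6.39 in NAMPT and 7.11 in EV, and with 2 surrogate variables the value was -0.81.

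Among the Ugt2b members, Ugt2b34 separated best. It ran from 339 to 497 CPM with a median of 382 in EV and from 235 to 402 CPM with a median of 273 in NAMPT. All NAMPT libraries except replicate 6 lay below every EV library (log2 fold change -0.55 ± 0.13, SE, adjusted p = 0.0128). Ugt2b5, the highest member per kilobase, ran from 379.5 to 562 CPM with a median of 468 in EV and from 219 to 632 CPM with a median of 330.4 in NAMPT (log2 fold change -0.52 ± 0.15, SE, adjusted p = 0.0285). Here 4 NAMPT libraries were below and replicate 6 was above every EV library. Ugt2b35 ran from 97.4 to 165 CPM in EV and from 81.9 to 154 CPM in NAMPT, with 3 NAMPT libraries below the EV range (log2 fold change -0.46 ± 0.15, SE, adjusted p = 0.0377). Ugt2b1 overlapped widely, at 270.2 to 986 CPM in EV and 179 to 1206 CPM in NAMPT, and was not called (adjusted p = 0.196).

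Both Ugt3a members were lower. UGT3A enzymes differ from the other UGTs in using sugar donors other than UDP-glucuronic acid. Ugt3a1 ran from 57.5 to 88.3 CPM with a median of 65.5 in EV and from 24.9 to 79.1 CPM with a median of 46.1 in NAMPT. All NAMPT libraries except replicate 6 were below every EV library, and the level was 1.62-fold lower (log2 fold change -0.69 ± 0.15, SE, adjusted p = 0.00994). Ugt3a2 ran from 233 to 386 CPM in EV and from 96.4 to 334 CPM in NAMPT, with 4 NAMPT libraries below the EV range (log2 fold change -0.56 ± 0.16, SE, adjusted p = 0.0259).

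Of the sulfotransferases, Sult2a7 changed most, at a low level. It had 18 to 57 counts per EV library, or 0.832 to 2.29 CPM with a median of 1.51. With NAMPT it had 6 to 26 counts, or 0.141 to 1.4 CPM with a median of 0.535. All NAMPT libraries except replicate 6 were below every EV library (log2 fold change -1.92 ± 0.39, SE, adjusted p = 0.00868). Sult1b1, a thyroid hormone sulfotransferase, ran from 15.2 to 44.6 CPM in EV and from 10.05 to 46.4 CPM in NAMPT (log2 fold change -0.81 ± 0.26, SE, adjusted p = 0.0401). Its ranges overlapped almost wholly, with 1 NAMPT library below and replicate 6 above every EV library. Apart from replicate 6, NAMPT libraries held at most 21.8 CPM. Apart from replicate 4, at 15.2 CPM, EV libraries held at least 25.4 CPM. Sult2a8, at 162 to 619 CPM in EV and 58.5 to 752 CPM in NAMPT, was not called (adjusted p = 0.0652), nor was Sult1a1 (adjusted p = 0.188).

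**Figure D2:**
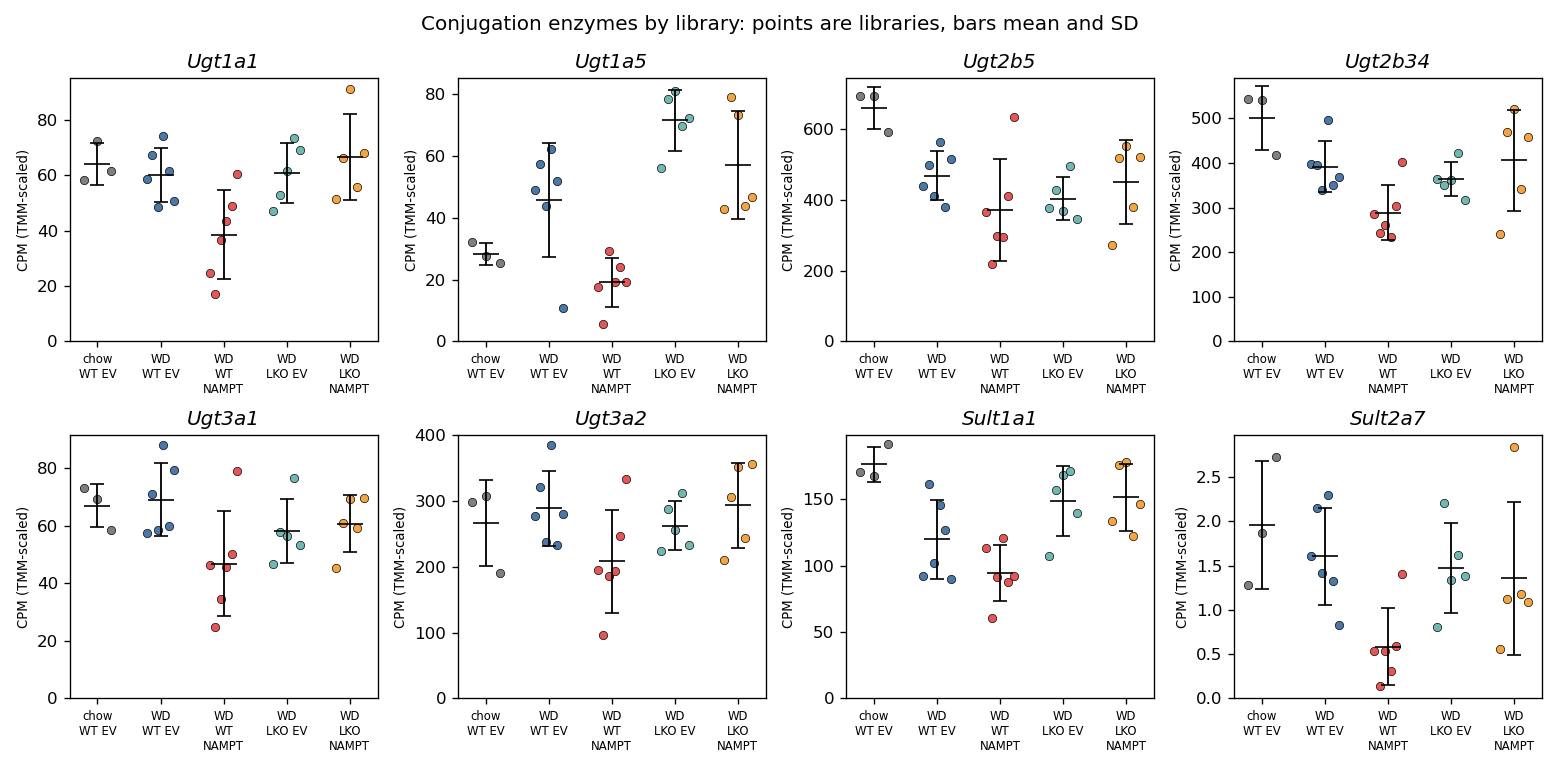
TMM-scaled CPM (y axes, from 0) of 8 members, with 1 point per library in each of the 5 groups and bars for the mean and SD. For Ugt1a5 the 6 WT NAMPT libraries lie at or below 29.3 CPM and the SIRT1 LKO libraries at or above 42.7 CPM, and for Ugt2b5, Ugt2b34, Ugt3a1, Ugt3a2 and Sult2a7 WT NAMPT replicate 6 lies well above the rest of its group.

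Markers of other liver cells moved with the same comparison. The sum of 6 macrophage markers was 188 to 297 CPM with a median of 232 in EV and 209 to 486 CPM with a median of 371 in NAMPT, and 4 of the 6 were called higher. The sum of 6 stellate cell and fibroblast markers was 286 to 476 CPM in EV and 291 to 719 CPM in NAMPT, with 3 of 6 called higher. Of 5 neutrophil markers, summed to 1.24 to 5.61 CPM in EV and 1.51 to 16.5 CPM in NAMPT, 3 were tested and 1 was higher. Of 5 endothelial markers 1 was higher and 1 lower, and of 7 lymphocyte, 4 cholangiocyte and 4 enterocyte markers none was called. Of 4 kidney tubule markers Kap was at 0 in every library, and their sum was at most 0.215 CPM. Replicate 6, with the highest member sum among NAMPT libraries, had the lowest macrophage sum. Replicate 2, with the lowest member sum, had a macrophage sum of 399 CPM, below replicates 1 and 3. In WT EV on WD, replicate 4 had the lowest macrophage sum, 188 CPM, and also the lowest member sum, 2412 CPM. Hepatocyte marker sums overlapped, at 49923 to 66432 CPM in EV and 44500 to 62821 CPM in NAMPT, with 0 of 6 called. The part of these cells in the changes of the members was not tested.

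**Figure D3:**
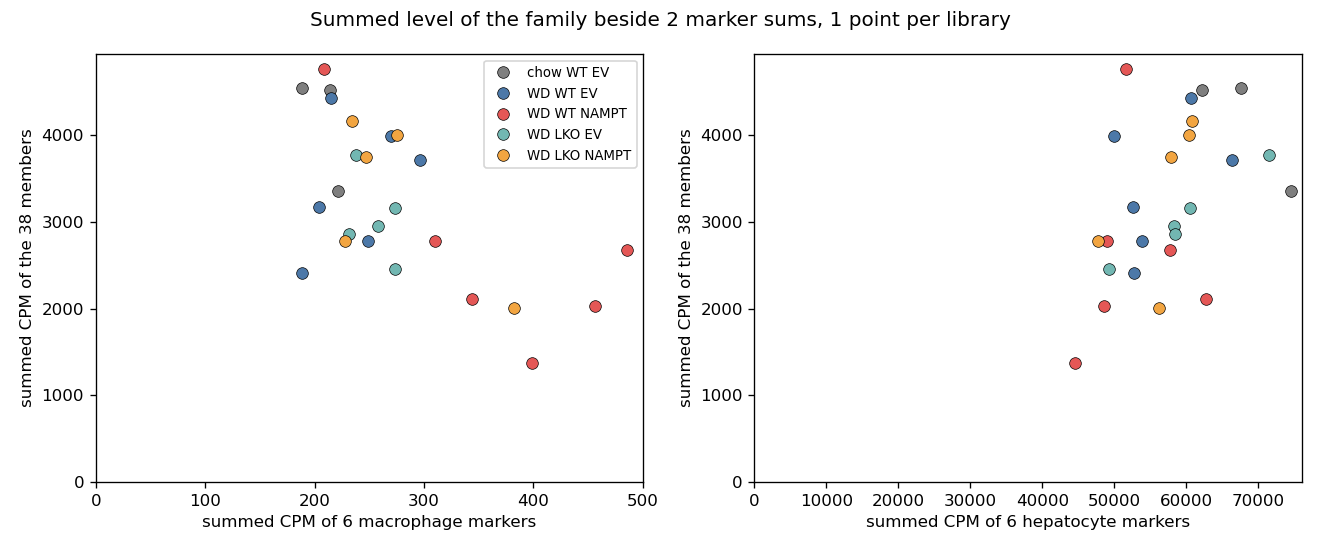
Summed CPM of the 38 members (y axis) against the summed CPM of 6 macrophage markers (left) or 6 hepatocyte markers (right), 1 point per library coloured by group. WT NAMPT replicate 1 has the highest macrophage sum, 486 CPM, with a member sum of 2673 CPM, and WT NAMPT replicate 6 lies at 209 and 4768 CPM.

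These calls depended on the fit and on single libraries. Without quality weights 2 members were called, with the edgeR quasi-likelihood test 3, with the edgeR exact test 4, with DESeq2 5, without a filter 3, within the compared groups alone 3, with upper-quartile size factors 10, and with 2 surrogate variables 0. All members called in these fits were among the 10. Shares of all genes called in these fits are not given here, so the counts describe only how the calls depended on the fit. At an unadjusted p under 0.05 there were 14 members in limma, all lower. Of all genes 30.3% reached that limit in either direction and 14% in this direction. In the edgeR quasi-likelihood test 8 members did, against 23.4% of all genes. Leaving out WT NAMPT replicate 3 left 1 call (Sult2a7), WT EV replicate 2 left 2, WT EV replicate 6 left 3, WT NAMPT replicate 2 left 5 and WT NAMPT replicate 4 left 6. Without WT NAMPT replicates 2 and 6 together, an alternative chosen after seeing the data, there were 12 calls, which included all 10. Sult2a7 was called in 8 of 9 other fits and in all 12 fits without a single library.

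In the livers labelled SIRT1 LKO, NAMPT against EV called 0 of the 26 members, against 0.00711% of all genes in either direction. No member reached an unadjusted p under 0.05 in limma, where 9.63% of all genes did, and 1 did in the edgeR quasi-likelihood test, where 6.53% of all genes did. That test and DESeq2 also called 0. The median log2 fold change of the members was 0.11, against 0.02 over all genes, and 20 of 26 values were positive. Ugt1a1 held 47.2, 52.8, 61.6, 73.5 and 69.1 CPM in the EV libraries and 51.5, 66.2, 91.4, 55.9 and 68 CPM in the NAMPT libraries, which overlapped (log2 fold change 0.11 ± 0.17, SE, adjusted p = 0.88). Ugt1a5 held 56, 78.5, 81, 69.7 and 72.2 CPM with EV and 42.7, 79.1, 73.1, 43.9 and 46.7 CPM with NAMPT (log2 fold change -0.33 ± 0.32, SE, adjusted p = 0.782). Here 3 of the 5 NAMPT libraries lay below every EV library.

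Members of high level in the other subfamilies overlapped between vectors in SIRT1 LKO livers. Ugt2b5 held 377, 426, 367, 495 and 344 CPM with EV and 272, 516, 552, 379.9 and 521 CPM with NAMPT (log2 fold change 0.20 ± 0.16, SE, adjusted p = 0.74). Ugt2a3 held 124, 155, 149, 242 and 176 CPM with EV and 129, 201, 209, 135 and 201 CPM with NAMPT (log2 fold change 0.12 ± 0.20, SE, adjusted p = 0.878). Sult2a8, the bile acid sulfotransferase, held 154, 335, 290.3, 497 and 381 CPM with EV and 80.3, 421, 638, 310.2 and 520.2 CPM with NAMPT (log2 fold change 0.20 ± 0.45, SE, adjusted p = 0.914). Replicate 1 was the lowest SIRT1 LKO EV library for 16 of the 26 members tested.

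The interaction of vector and genotype tested directly whether the NAMPT effect differed between genotypes. It called 0 of the 26 members, against 0.00711% of all genes, while 11 members had an unadjusted p under 0.05, all with a more positive NAMPT effect in the libraries labelled SIRT1 LKO, against 11.1% of all genes at that limit in this direction and 21.2% in either. The edgeR quasi-likelihood test called 0, with 6 members at an unadjusted p under 0.05 against 11% of all genes, and DESeq2 called 0. The smallest adjusted p-values belonged to Ugt2b34 (log2 difference 0.74 ± 0.19, SE, adjusted p = 0.0745), Ugt1a6b (log2 difference 0.51 ± 0.14, SE, adjusted p = 0.0772) and Ugt3a1 (log2 difference 0.79 ± 0.21, SE, adjusted p = 0.0774). Some single libraries changed this count: leaving out SIRT1 LKO NAMPT replicate 1 gave 7 calls, and leaving out replicate 6 or 5 of WT NAMPT gave 6 and 4. Ugt1a6b, Ugt2b34 and Ugt3a1 were among these calls each time. Every other one of the 22 fits without a single library gave 0, as the main fit did. The share of all genes called in the fits that gave calls is not given here.

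Among NAMPT-treated mice, SIRT1 LKO was compared with WT. These WT NAMPT libraries are those of the comparison with EV, so opposite signs in both are not independent. A total of 7 of 26 members were higher in SIRT1 LKO NAMPT and none was lower, against a background of 4.18% of all genes called higher and 3.78% called lower. They were Ugt1a1, Ugt1a5, Ugt2b34, Ugt3a1, Ugt3a2, Sult1a1 and Sult2a7. The median log2 fold change of the members was 0.44, against -0.005 over all genes, and 0.12 with 2 surrogate variables.

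Ugt1a5 and Sult1a1 separated without overlap. Ugt1a5 held 42.7, 79.1, 73.1, 43.9 and 46.7 CPM in SIRT1 LKO NAMPT, all above the 5.75 to 29.3 CPM of WT NAMPT, a 2.83-fold higher level (log2 fold change 1.5 ± 0.34, SE, adjusted p = 0.0185). Sult1a1, the phenol sulfotransferase, held 134, 176, 178, 122 and 146 CPM against 60.9 to 121 CPM with a median of 91.7 (log2 fold change 0.62 ± 0.17, SE, adjusted p = 0.0323).

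The other called members overlapped. Ugt1a1, with the SIRT1 LKO NAMPT values given above, had 3 of 5 libraries above every WT NAMPT library (log2 fold change 0.75 ± 0.18, SE, adjusted p = 0.0225). Ugt2b34 held 240.3, 468, 521, 342 and 459 CPM, 3 of them above every WT NAMPT library and replicate 1 near the lowest (log2 fold change 0.62 ± 0.14, SE, adjusted p = 0.0188). Ugt3a1 held 45.3, 60.9, 69.2, 59.2 and 69.6 CPM, none above the highest WT NAMPT library, which was replicate 6 (log2 fold change 0.53 ± 0.16, SE, adjusted p = 0.0417). Ugt3a2 held 210.3, 306, 352, 243 and 356 CPM, 2 of them above that range (log2 fold change 0.57 ± 0.17, SE, adjusted p = 0.0436). Sult2a7 held 0.558, 1.12, 2.83, 1.18 and 1.09 CPM, with replicate 3 alone above it (log2 fold change 1.35 ± 0.41, SE, adjusted p = 0.0459).

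Macrophage marker sums in SIRT1 LKO NAMPT were 228 to 382 CPM, highest in replicate 1, which was also the lowest of its group for 16 of the 26 members tested. Replicate 4 had the lowest macrophage sum and a member sum of 2782 CPM, where the group ran from 2009 to 4170 CPM. In this comparison 2 of 6 macrophage markers, 1 of 6 stellate cell and fibroblast markers, 1 of 4 cholangiocyte markers and 1 of 6 hepatocyte markers were called lower. Their part in it was not tested.

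At an unadjusted p under 0.05 there were 15 members in limma, all higher. Of all genes 28.6% reached that limit in either direction and 14.3% in this direction. In the edgeR quasi-likelihood test 10 members did, against 19.3% of all genes. The number of calls again depended on the fit. The edgeR quasi-likelihood test called 1 member, the exact test 3, DESeq2 3 and upper-quartile size factors 4, while limma called 0 without quality weights, without a filter, within the compared groups alone or with 2 surrogate variables. Leaving out SIRT1 LKO NAMPT replicate 2 or 5 left 0 calls, SIRT1 LKO NAMPT replicate 3 or WT NAMPT replicate 3 left 1, WT NAMPT replicate 2 left 2 and WT NAMPT replicate 1 left 4. Leaving out SIRT1 LKO NAMPT replicate 4, WT NAMPT replicate 6 or SIRT1 LKO NAMPT replicate 1 gave 11, 12 and 13. Without WT NAMPT replicates 2 and 6 there were 7, of which 5 were the same and Sult1a1 and Sult2a7 were lost.

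Among EV mice on WD, SIRT1 LKO against WT called 0 of 26 members, against 0.00711% of all genes. Their median log2 fold change was -0.16, against 0.001 over all genes, and 20 of 26 values were negative. In limma 4 members had an unadjusted p under 0.05, as did 6.33% of all genes, and in the edgeR quasi-likelihood test 3 did, against 3.54%. Ugt1a5 held 56, 78.5, 81, 69.7 and 72.2 CPM in SIRT1 LKO EV, 4 of them above every WT EV library (log2 fold change 0.74 ± 0.30, SE, adjusted p = 0.693). Sult1c2, a member of low level named after its values were seen, held 4.43, 5.16, 6.05, 5.45 and 4.97 CPM against 2.78 to 5.13 CPM in WT EV (log2 fold change 0.51 ± 0.17, SE, adjusted p = 0.599). Sult5a1, the highest of the other Sult genes, held 1.89, 3.66, 1.63, 2.71 and 3.71 CPM against 2.25 to 13 CPM (log2 fold change -1.28 ± 0.47, SE, adjusted p = 0.656). The fourth was Ugt1a6b (log2 fold change -0.28 ± 0.09, SE, adjusted p = 0.599).

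**Figure D4:**
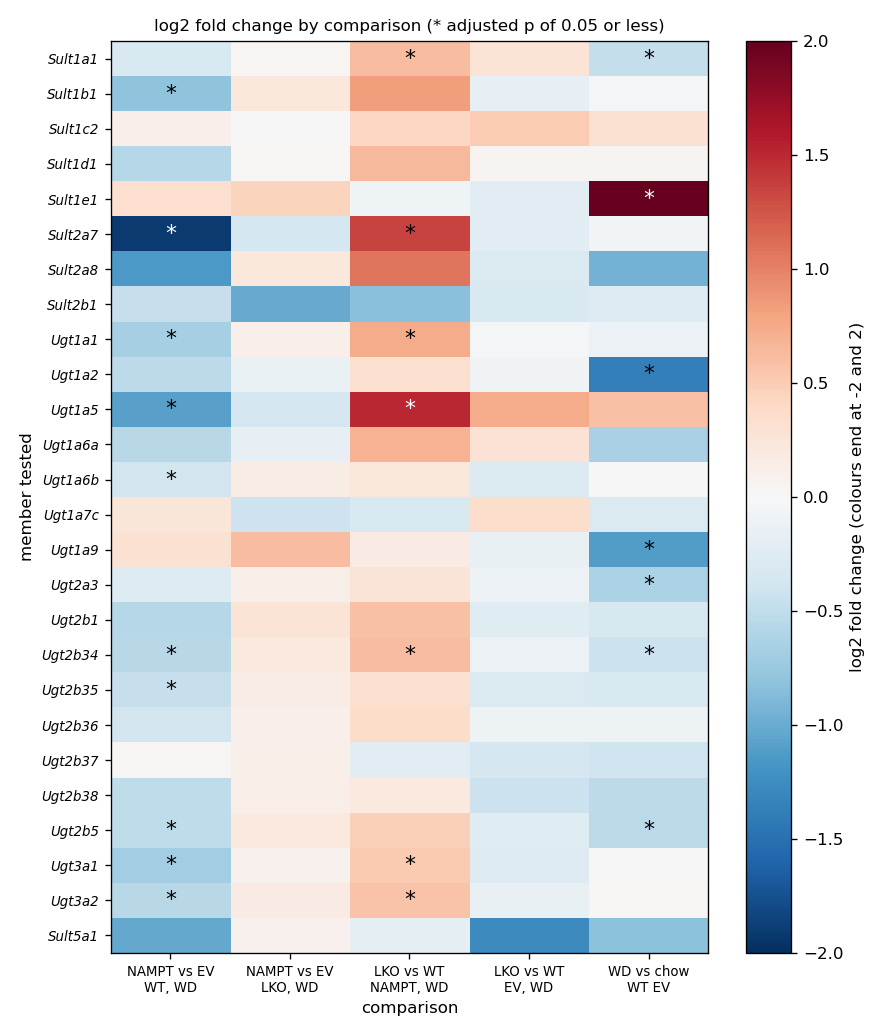
Fitted log2 fold change of the 26 tested members (rows, ordered by subfamily) in the 5 comparisons between groups (columns), from blue (lower) to red (higher), with a star where the adjusted p was 0.05 or less and colours ending at -2 and 2. The column of NAMPT in WT holds 10 stars on blue, that of SIRT1 LKO against WT under NAMPT 7 on red, that of WD against chow 6 on blue and 1 on red, and the other columns none.

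Western diet was compared with chow in WT EV mice, with 6 and 3 libraries. Lower on WD were 6 of 26 members, against a background of 12.0% of all genes called lower, and higher was 1, against 10.1%. The lower members were Ugt1a2, Ugt1a9, Ugt2a3, Ugt2b5, Ugt2b34 and Sult1a1, and the higher was Sult1e1. Ugt1a2 and Sult1e1 passed the filter on low counts without any library of the lower diet group above 1 CPM, and of the other 24 members 5 were lower and 0 higher. The median log2 fold change of the members was -0.30, against -0.005 over all genes, and with 2 surrogate variables it was 0.02.

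Ugt2a3 held 282, 272 and 265 CPM on chow and 117 to 257 CPM with a median of 188 on WD, without overlap (log2 fold change -0.63 ± 0.20, SE, adjusted p = 0.0249). Ugt2b5 held 691, 692 and 589 CPM on chow, all above the WD libraries, whose highest had 562 CPM (log2 fold change -0.53 ± 0.16, SE, adjusted p = 0.0213). Ugt2b34 ran from 418 CPM in chow replicate 3, which lay within the WD range, to 543 CPM in chow replicate 1 (log2 fold change -0.43 ± 0.14, SE, adjusted p = 0.0297). In these 3 members of the chromosome 5 cluster, at least 5 of the 6 WD libraries lay below every chow library. Sult1a1 held 170.4, 167 and 192 CPM on chow and 90.4 to 162 CPM with a median of 114 on WD, without overlap (log2 fold change -0.48 ± 0.17, SE, adjusted p = 0.0402).

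Within the Ugt1a locus, Ugt1a9 and Ugt1a2 were called. Ugt1a9, which acts on bulky phenols, held 9.97, 11 and 29.4 CPM on chow and 2.4 to 14.3 CPM with a median of 6.19 on WD (log2 fold change -1.11 ± 0.34, SE, adjusted p = 0.0219). Of the WD libraries 4 were below all chow libraries, and chow replicate 3 was far above the other pair. Without chow replicate 3, or without WT EV replicate 2 or 8, Ugt1a9 was no longer called. Ugt1a2, at 22 to 37 counts per chow library and 6 to 21 per WD library, held 1.53, 1.51 and 0.868 CPM on chow and 0.277 to 0.83 CPM on WD, without overlap (log2 fold change -1.36 ± 0.39, SE, adjusted p = 0.0146). It passed the filter through 2 chow libraries alone, so its call supports no difference by itself (adjusted p = 0.0483 without a filter, limma). Ugt1a1 held 58.2, 72.6 and 61.7 CPM on chow and was not called (adjusted p = 0.692), nor was Ugt1a5, which held 32, 27.7 and 25.2 CPM on chow (adjusted p = 0.207).

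Sult1e1, the estrogen sulfotransferase, had 0, 0 and 6 counts in the chow libraries, or 0, 0 and 0.237 CPM. A count of 0 allows up to 0.125 and 0.132 CPM there (3 counts per library, counting error only). The 6 WD libraries held 3 to 31 counts, or 0.124 to 1.43 CPM with a median of 0.666, and 5 of them were above every chow library. Sult1e1 was called (log2 fold change 4.20 ± 1.45, SE, adjusted p = 0.0403), while the ratio of the mean CPM was 8.93, from 95 WD and 6 chow counts in all. A fitted value at such counts depends on the count added before the log. It passed the filter through 6 libraries of the WD groups, 1 of them WT EV, and no chow library, so its call supports no difference by itself (adjusted p = 0.00973 without a filter, limma). The call was lost without chow replicate 1 or 2 or WT EV replicate 1, 6 or 8.

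**Figure D5:**
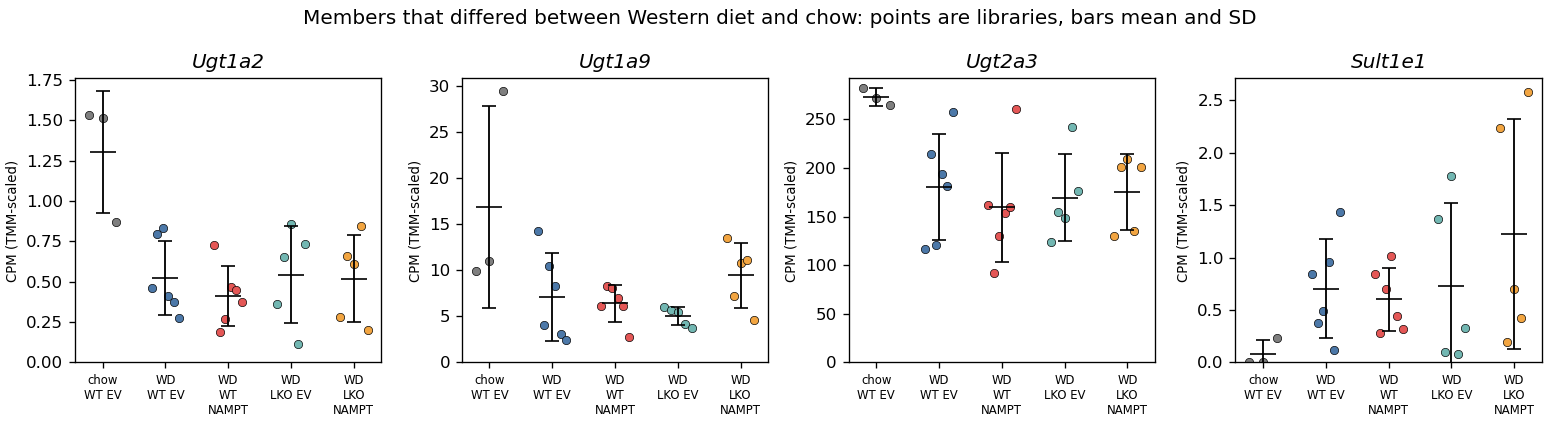
TMM-scaled CPM (y axes, from 0) of Ugt1a2, Ugt1a9, Ugt2a3 and Sult1e1 in each library, by group, with bars for the mean and SD. The 3 chow points of Ugt2a3 lie between 265 and 282 CPM, above all 6 WT EV points on WD, and 2 of the 3 chow points of Sult1e1 lie at 0.

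Chow replicate 3 was the lowest of its group for 20 of the 26 members tested. Cell markers differed by diet too. Hepatocyte marker sums were 62184 to 74604 CPM on chow and 49923 to 66432 CPM on WD, with 2 of 6 called lower. Of 6 stellate cell and fibroblast markers 2 were higher on WD, of 6 macrophage markers 1, and enterocyte marker sums ran from 30.3 to 32.5 CPM on chow and from 128 to 243 CPM on WD. These sums came almost wholly from Fabp2, the single enterocyte marker tested, which was higher on WD, whereas Vil1, Lct and Alpi were at or near 0. Of 7 lymphocyte markers 1 was higher and of 5 endothelial markers 1 lower. Their part in the diet calls was not tested. Leaving out chow replicate 1 or 2 left 1 call each, and leaving out WT EV replicate 1 or 4 left 4 each. The edgeR quasi-likelihood test called 0 members, with 6 at an unadjusted p under 0.05 against 24.2% of all genes, the edgeR exact test 1, DESeq2 3, limma without weights 1, without a filter 2, with 2 surrogate variables 4, of which 2 were the same, within the compared groups alone 6, of which 5 were the same, and with upper-quartile size factors 7.

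Genes around the conjugation step were counted as lists, to be read against the shares of all genes called: 5.77% lower and 7.67% higher for NAMPT in WT mice, 4.18% higher and 3.78% lower for SIRT1 LKO against WT under NAMPT, and 12.0% lower and 10.1% higher on WD. Of 4 genes of UDP-glucuronic acid supply, Ugp2, which makes UDP-glucose, was higher on WD than on chow (log2 fold change 0.65 ± 0.16, SE, adjusted p = 0.00594) and higher in SIRT1 LKO NAMPT than in WT NAMPT (log2 fold change 0.67 ± 0.17, SE, adjusted p = 0.026), and no other was called. Of 9 genes of PAPS and sulfate supply, 2 were lower and 1 higher on WD. Papss2, a PAPS synthase, averaged 243 ± 35.3 CPM (SD, n = 3) on chow and 147 ± 27 CPM (SD, n = 6) on WD (log2 fold change -0.63 ± 0.15, SE, adjusted p = 0.00313). The PAPS carriers Slc35b3 and Slc35b2 were lower (log2 fold change -0.47 ± 0.12, SE, adjusted p = 0.00547) and higher (log2 fold change 0.24 ± 0.06, SE, adjusted p = 0.0104). Papss2 was also the 1 gene of this list that was higher in SIRT1 LKO NAMPT than in WT NAMPT (log2 fold change 0.48 ± 0.15, SE, adjusted p = 0.0435). In that comparison the 9 other fits called 0 or 1 gene of UDP-glucuronic acid supply and 0 or 1 of PAPS and sulfate supply. On WD they called 1 or 2 and 1 to 5. Both deconjugation genes tested had 0 calls in every comparison in the main limma fit, where none of these 3 lists had a gene called for NAMPT in WT mice. For NAMPT in WT mice, the 9 other fits called 0 or 1 gene of the deconjugation list and of the PAPS list. The fits without single libraries did the same. On WD these fits called 0 or 1 deconjugation gene.

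Of 7 conjugate transporters, 3 were lower with NAMPT in WT mice, a count that was 0 to 2 in the 9 other fits and 0 to 3 without single libraries. They were Abcg2, a canalicular exporter (log2 fold change -0.52 ± 0.15, SE, adjusted p = 0.0265), Abcc3, a basolateral exporter (log2 fold change -0.56 ± 0.17, SE, adjusted p = 0.0337), and Slco1b2, an uptake carrier (log2 fold change -0.63 ± 0.21, SE, adjusted p = 0.0424). Slco1b2 was also the 1 transporter called between genotypes under NAMPT, where it was higher in SIRT1 LKO (log2 fold change 0.74 ± 0.22, SE, adjusted p = 0.0425), and none of the 9 other fits called a transporter there. On WD the uptake carrier Slco1a4 was lower, at 105 ± 12.4 CPM (SD, n = 3) on chow and 29 ± 10.5 CPM (SD, n = 6) on WD (log2 fold change -1.83 ± 0.26, SE, adjusted p = 2.25e-05), and Abcg2 was higher (log2 fold change 0.58 ± 0.16, SE, adjusted p = 0.00948).

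Of 13 regulators, Nr1i3 (CAR) was the 1 called for NAMPT in WT mice, with 51.7 ± 8.87 CPM (SD, n = 6) in EV and 30.5 ± 16.8 CPM (SD, n = 6) in NAMPT (log2 fold change -0.95 ± 0.22, SE, adjusted p = 0.0128). It was also the 1 called between SIRT1 LKO NAMPT and WT NAMPT (log2 fold change 0.85 ± 0.24, SE, adjusted p = 0.0336). In both comparisons the 9 other fits called 0 or 1 regulators. On WD, Ppara was higher (log2 fold change 1.04 ± 0.16, SE, adjusted p = 5.69e-05), while Arnt, the partner of the dioxin receptor (log2 fold change -0.24 ± 0.08, SE, adjusted p = 0.0308) and Stat5b (log2 fold change -0.33 ± 0.08, SE, adjusted p = 0.00638) were lower. Of 9 target genes of these receptors, 2 were lower with NAMPT in WT mice, 2 higher in SIRT1 LKO NAMPT than in WT NAMPT, and 2 higher and 4 lower on WD. Of 10 female-predominant liver genes 8 were tested: 0 were called for NAMPT in WT mice, 1 was higher in SIRT1 LKO NAMPT than in WT NAMPT, and 1 was higher and 3 were lower on WD. Of 9 male-predominant genes, 1 was lower with NAMPT in WT mice, 1 lower in SIRT1 LKO NAMPT than in WT NAMPT and 3 lower on WD. In these last 3 lists the 9 other fits called 0 to 4 genes for NAMPT in WT mice, 0 to 2 for SIRT1 LKO against WT under NAMPT and 1 to 8 on WD.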

How the data were processed

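Poly-A RNA from 25 livers was sequenced as single 50-base reads. The authors aligned reads to GRCm38 with STAR and counted unambiguous reads per gene with featureCounts (2.5.1a and 1.4.6-p5 in the submitters' processing notes, and other versions in the study's methods). Whether strand was used is not given in the sources used here. The deposited files hold raw counts, which were tested, and CPM and RPKM values that the authors made from them, which were recomputed from the counts within a relative 5.9e-14 and not used further. Symbols came from GENCODE vM21 for 40340 of 41388 gene IDs, and promoters from RefSeq (GRCm38.p6). Genes above 1 CPM in at least 2 libraries were kept, and 4 ribosomal RNA genes among them were left out. TMM factors (edgeR 4.0.16) and voomWithQualityWeights (limma 3.58.1, R 4.3.3) were applied to all 25 libraries with 1 mean per group, and p-values were adjusted over 14065 genes by the Benjamini-Hochberg method. Printed levels are CPM scaled by TMM. Named members are those called in any of 6 comparisons and the highest of each subfamily, and others appear by count, range or name. Alternatives were edgeR and DESeq2 1.42.0 tests, no weights, upper-quartile factors, no filter, the compared groups alone, a replicate block, 2 surrogate variables (sva 3.50.0) and leaving out each library. The fit was tested on simulated data. Members and gene lists were chosen with earlier results of these data known. A treatment label names SIRT1 as the vector insert, whereas the titles, which were followed, name NAMPT. No label names a batch, litter or collection time. A further regulator, beyond the 13 described, is not reported here.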

Additional observations from a re-analysis of the deposited data

Results flagged for a closer look

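Among 75 groups of 5 or 6 libraries examined for the members described, 7 held a library whose gap to the nearest other one exceeded Dixon's 95% limit on the log2 scale, and chance alone gives about 1 in 20. Of these, 2 are groups with a single library above 0, which pass the limit by construction and say nothing about that library. Ugt1a5 stood at 10.7 CPM in WT EV replicate 8 on WD, while the other 5 lay between 43.7 and 62.2 CPM. It stood at 5.75 CPM in WT NAMPT replicate 2, while the others lay between 17.5 and 29.3 CPM. Ugt1a9 stood at 2.8 CPM in WT NAMPT replicate 6, against 6.15 to 8.3 CPM. Sult1b1 stood at 17.5 CPM in SIRT1 LKO EV replicate 1, against 26.7 to 31.5 CPM. Sult3a1 gave both such groups: with 4 counts each, it stood at 0.151 CPM in WT EV replicate 2 on WD and at 0.149 CPM in WT NAMPT replicate 5, where all others were at 0. It stood at 0.178 CPM in SIRT1 LKO EV replicate 3, with 6 counts, against 0.0773 to 0.1 CPM.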

How the results depend on the processing

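For NAMPT against EV in WT mice, 10 members were called and other fits gave 3 (edgeR quasi-likelihood test), 4 (edgeR exact test), 5 (DESeq2), 2 (no quality weights), 3 (no filter), 3 (compared groups alone), 6 (replicate block) and 0 (2 surrogate variables), upper-quartile size factors 10, and leaving out single libraries gave 1 to 14. For SIRT1 LKO against WT under NAMPT, 7 were called and these fits gave 1, 3, 3, 0, 0, 0, 3 and 0, upper-quartile size factors 4, and leaving out single libraries 0 to 13. For WD against chow, 7 were called and the edgeR quasi-likelihood test gave 0, the exact test 1, DESeq2 3, no weights 1, no filter 2, the compared groups alone 6, upper-quartile size factors 7, 2 surrogate variables 4 and single libraries left out 1 to 8. The replicate block gave 9 there, of which 4 were the same, and the interaction, with 0 calls, gave 0 to 7 without single libraries. Both other comparisons gave 0 throughout. Without WT NAMPT replicates 2 and 6 the interaction also gave 0. The cause of these differences was not tested. Of 216 values of called members under full alternatives 75 stayed past the threshold, 141 did not and 0 changed sign. With single libraries left out these were 160, 100 and 0 of 260. Same-numbered samples were not paired: correlations of their deviations ran from -0.32 to 0.37, so the block values describe shared numbers only. Depth limits members with few counts per library, among them the called Sult1e1, Sult2a7 and Ugt1a2 and the 12 members not tested.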

Other observations

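The ratio of Ugt1a5 to Ugt1a1 CPM within a library does not depend on library scaling. It was chosen after its values were seen and is given without a test. It was 0.55, 0.381 and 0.409 in the chow WT EV libraries. In WT EV on WD, 5 libraries lay between 0.833 and 0.899 and replicate 8 at 0.211. WT NAMPT libraries ranged from 0.316 to 0.802, SIRT1 LKO EV libraries from 0.947 to 1.49 and SIRT1 LKO NAMPT libraries from 0.687 to 1.196. In WT EV replicate 8 on WD, Ugt1a1 stood at 50.7 CPM, within the range of its group.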
